A study of Mus musculus with 18 samples.

Results

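Cells transfected with the negative control of a microRNA inhibitor were compared with cells that received no transfection, both in high glucose, in 3 libraries against 3, which are 6 of the 18 libraries of the series. All 6 came from cells labelled HL-1, a line derived from mouse atrial cardiomyocytes, and the libraries were taken by their labels alone. The high glucose group is labelled with a control genotype and high glucose treatment. The inhibitor control group carries the negative control of a miR-200a-3p inhibitor, is also labelled as high glucose treated, and was harvested 48 h after transfection with a lipid reagent. The labels give no mock-transfected cells, no glucose concentration and no culture or batch numbers, so reagent, oligonucleotide, handling and culture cannot be told apart in what follows. The 3 mimic control libraries, transfected with the negative control of a miR-200a-3p mimic in high glucose, serve as the nearest comparison.

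A microRNA inhibitor is a synthetic strand that pairs with a mature microRNA and keeps it from its targets. Its negative control has the same chemistry and an unrelated sequence, and it is used to show what transfection does apart from the microRNA. Synthetic nucleic acids delivered with cationic lipids can be recognised by the RNA sensors of the interferon system, which is why matched controls are used. The matching inhibitor is directed against the mature microRNA printed here 5′ to 3′ with the seed (bases 2 to 8) in capitals, from RefSeq (chr4:156054911-156054932, minus strand, GRCm38.p6). The sequence of the negative control itself was not used here.
mmu-miR-200a-3p: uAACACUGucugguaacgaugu

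Reads per library were 33676320 to 35519954 in the 6 libraries. Libraries of a group correlated at 0.997 to 0.998 over log2 CPM (counts scaled to the library total and by TMM), and libraries of different groups at 0.928 to 0.935, as a description across genes. Reads were found for 21130 to 21379 genes in the inhibitor control and for 19592 to 19761 in high glucose. Nothing in the labels ties the 3 libraries of a group to separate cultures. The p-values therefore reflect only how far libraries of a group differ, and that may be technical. This spread was estimated over all 18 libraries, so groups outside the comparison enter it.

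The comparison was one of nearly the whole transcriptome. Of 29112 genes listed, 15074 passed the filter on low counts and were tested, and of these 6049 rose and 5928 fell in the inhibitor control at an adjusted p under 0.05, by edgeR's quasi-likelihood test with Benjamini-Hochberg adjustment. That is 79.5% of genes, 40.1% higher and 39.3% lower. At a change of at least 2-fold the counts were 2903 higher (19.3%) and 2525 lower (16.8%). At 16-fold or more there were 308 higher and 93 lower. The median log2 fold change of all genes was 0.04, and the median size of a called change was 0.91. Since 79.5% of genes were called, the counts below are read against 40.1% and 39.3%, or at 2-fold against 19.3% and 16.8%. Libraries of the 2 groups did not overlap for 12161 of the genes tested (80.7%), so a lack of overlap is common to most genes. No group of genes is tested as a group: counts and medians describe it. A gene that is low in high glucose could pass the filter through another group in which it is higher, and such a gene had to differ.

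Several of the genes with the largest rise started near 0. H2-M10.1, a class I-like gene of the major histocompatibility complex at chr17:36633750-36637047, minus strand (GRCm39), stood at 0.369, 0.173 and 0.433 CPM in high glucose and 57.4, 55.0 and 60.2 CPM in the inhibitor control, a log2 fold change of 7.44 (SE 0.136). It belongs to a family of similar copies, so its reads may not be its own. Avil, which encodes the actin-severing protein advillin, went from 7.73 ± 0.441 to 424 ± 18.97 CPM (mean ± SD, n = 3), 54.8-fold. Tenm2, a teneurin of cell contacts, rose from 0.384 to 26.0 CPM. Dok7, an adaptor of the muscle-specific kinase at the neuromuscular junction, had 3 reads over the 3 high glucose libraries and 539 over the inhibitor control libraries, a ratio of reads per library size of 183 with a counting interval of 62.3 to 890 (95%, exact). The other genes among the 15 with the largest rise were Try5, Acox2, Col4a4, Sspo, Eid3, Dthd1, Dyrk4, Gvin2 and Ostn, with log2 fold changes of 5.21 to 7.27, and Kcnq1ot1 and Xist, described next.

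Txnip and 3 cytokines were among the genes that fell most. Txnip, the glucose-induced arrestin that lowers glucose uptake, fell 434-fold, and Cxcl1 and Il6 fell 149-fold and 129.8-fold. Ip6k3, an inositol hexakisphosphate kinase of muscle, fell from 65.8 to 1.61 CPM, Cd248 (endosialin of stromal cells) from 186 to 7.74, and Ypel4 from 53.8 to 2.17. Rdh16f1, Cys1, Calhm5 and Ptprv fell (log2 fold changes -4.60 to -6.93). Eif4e1b, a cap-binding protein of oocytes, had 446 reads in high glucose and 1 in the inhibitor control, and Smco3 had 83 and 0, so that Smco3 was at least 27.2-fold lower against a floor of 3 reads over the group.

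The kinds of RNA in the libraries differed as well. Transcripts that the annotation keeps in its TEC class, which holds unverified transcripts often seen as single unspliced exons, took 0.0363 to 0.0373% of reads in the inhibitor control and 0.0129 to 0.0139% in high glucose. Over all 1489 genes of the class, with no filter and CPM of the plain library total, that is 363 to 373 CPM against 129 to 139. By the GENCODE M39 annotation, the 820 of them that lie inside an intron of a protein-coding gene on its own strand took 17.9 to 19.8 CPM in high glucose and 128 to 132 in the inhibitor control. The 489 that lie outside protein-coding genes took 93.8 to 102 and 151 to 158 CPM. The 51 that overlap an exon of a protein-coding gene on its own strand took 3.07 to 4.965 and 67.7 to 68.1 CPM. The libraries of the groups did not overlap for any of these. They did overlap for the 120 that lie inside a protein-coding gene on the other strand only, at 13.3 to 14.2 and 13.6 to 14.6 CPM. Small nucleolar RNA genes, 173 in all, had 71 to 72 reads per library in high glucose and 463 to 507 in the inhibitor control. The mimic control was close to high glucose in the TEC class, at 137 to 139.5 CPM. The inhibitor group, transfected in high glucose with the miR-200a-3p inhibitor itself, was close to the inhibitor control, at 375 to 388, with 460 to 509 reads of small nucleolar RNA per library.

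Long RNAs that stay in the nucleus moved the same way. Malat1, the abundant RNA of nuclear speckles, stood at 437, 471 and 410.0 CPM in high glucose, 2316, 2143 and 1906 in the inhibitor control and 211, 207 and 211 in the mimic control. Neat1, the scaffold of paraspeckles, stood at 77.5, 76.6 and 70.0 CPM in high glucose, 973, 1074 and 998 in the inhibitor control and 18.3, 21.3 and 20.9 in the mimic control. Xist, the RNA that coats the inactive X chromosome, stood at 19.1, 35.3 and 37.9 CPM in high glucose, 1057, 1229.5 and 1231 in the inhibitor control and 121, 117 and 117 in the mimic control. Of these 3 groups the inhibitor control was the highest for each of the 3 genes with no overlap of libraries, and Malat1 and Neat1 were lower in the mimic control than in high glucose. Their log2 fold changes against high glucose were 2.27 (SE 0.191), 3.76 (SE 0.451) and 5.25 (SE 0.173), with adjusted p-values of 1.0e-09, 2.1e-07 and 3.6e-16. Kcnq1ot1, the antisense RNA of an imprinted cluster, rose from 0.123 to 5.20 CPM, with 0.170 in the mimic control. Its log2 fold change was 5.37, and 2.59 with correction for GC content and length. Of 11 nuclear or non-polyadenylated RNAs listed, 9 were tested and 7 rose, all at least 2-fold, and Meg3 and Rn7sk did not pass the test. Snhg1, a host of small nucleolar RNAs, rose from 4.37 to 48.2 CPM and was at 37.9 in the mimic control.

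**Figure D1:**
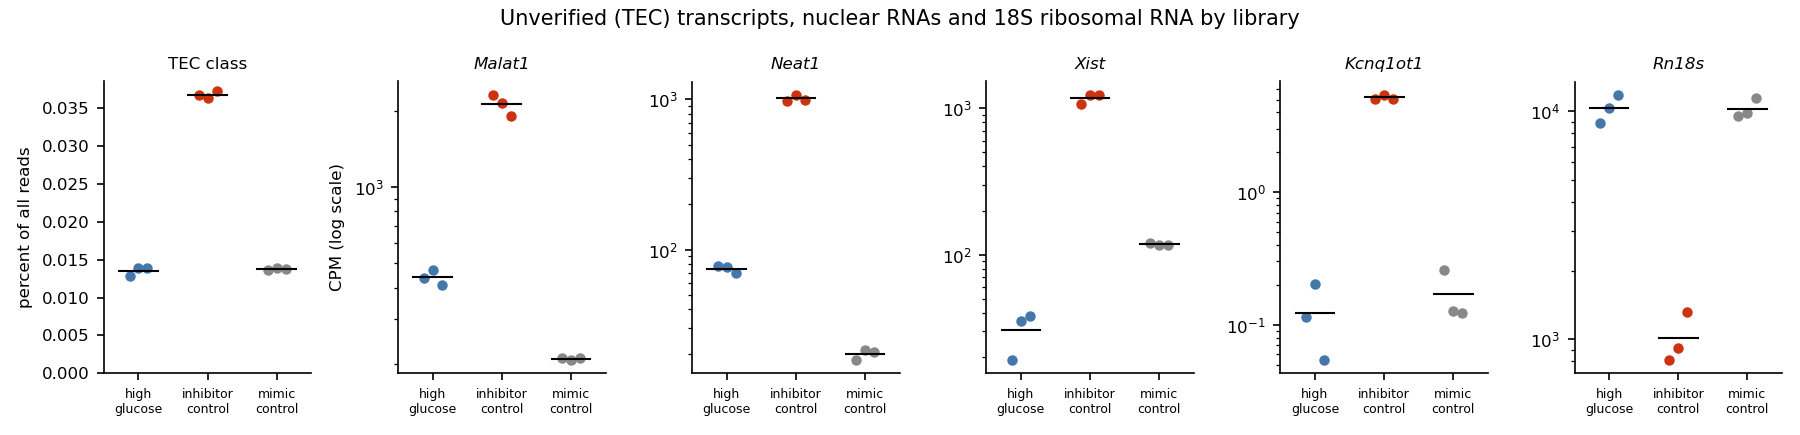
Share of reads in the class of unverified transcripts (TEC; percent, linear axis) and CPM (log axes) of Malat1, Neat1, Xist, Kcnq1ot1 and Rn18s in each of 3 libraries (points) of high glucose, inhibitor control and mimic control, with the mean as a line. Of the 3 groups drawn, the inhibitor control is highest for the TEC class and the 4 long RNAs and lowest for Rn18s.

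Ribosomal RNA went the other way. Rn18s, the 18S ribosomal RNA, stood at 8923, 10382 and 11823 CPM in high glucose and 811, 915 and 1323 in the inhibitor control, -3.35 (SE 0.182) on the log2 scale, and at 9532, 9816 and 11407 in the mimic control. The ribosomal RNA class took 0.915 to 1.23% of reads in high glucose, 0.0841 to 0.136% in the inhibitor control and 0.103 to 0.181% in the inhibitor group. The mitochondrial 12S RNA mt-Rnr1 fell from 955 to 21.8 CPM and the 16S RNA mt-Rnr2 from 402 to 133 (log2 fold change -1.60, and -2.94 with correction for GC content and length). The libraries were made by messenger RNA selection, and both kinds of gene have copies elsewhere in the genome, where only uniquely mapped reads were counted. Of 14 mitochondrial genes tested, 10 rose, all of them messengers, and 3 fell. The largest gain in level was that of mt-Cytb, cytochrome b, from 1875 to 5159.9 CPM. Correction for GC content and length turned the list's median from 0.97 to -0.51, and mt-Cytb went from 1.46 to 0.35.

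Fold changes followed base composition. Among protein-coding genes split in 5 equal groups by the GC content of the longest transcript, the median log2 fold change was 0.51 in the lowest group (31.9 to 43.8% GC), then 0.12, -0.10 and -0.29, and -0.55 in the highest (54.9 to 80.6%). The mimic control against high glucose went from 0.07 to -0.23 over the same groups. Values with correction for GC content and length, called the correction below, are given beside a list's median or a gene where they move the log2 value by more than 1.5 times. Whether RNA composition or base composition has a part in the other differences was not tested.

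**Figure D2:**
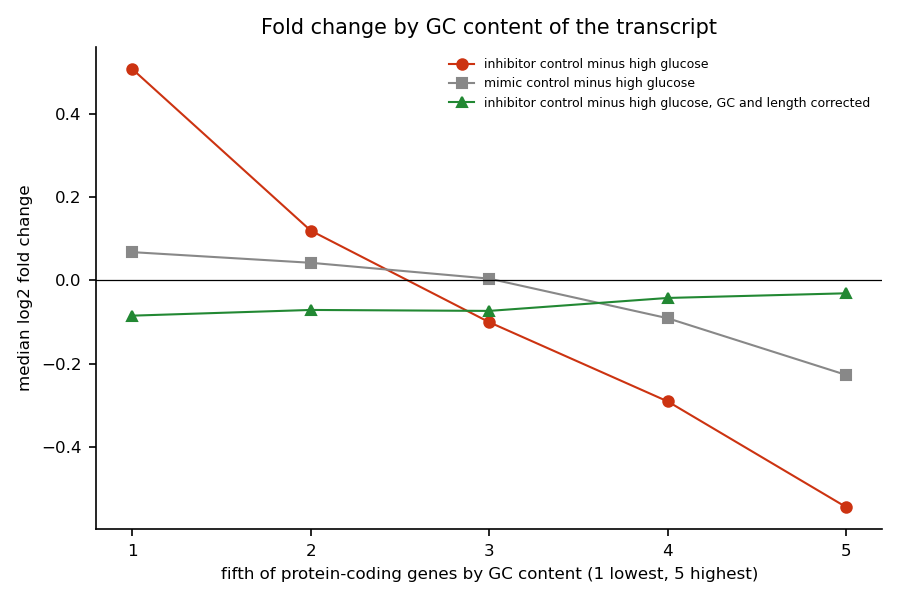
Median log2 fold change (vertical axis) of protein-coding genes in 5 groups of rising GC content (horizontal axis) for the inhibitor control (circles), the mimic control (squares) and the inhibitor control after correction for GC content and length (triangles), each against high glucose. The uncorrected inhibitor control falls from 0.51 to -0.55.

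Chaperones and folding enzymes of the endoplasmic reticulum rose together. When unfolded proteins build up in this compartment, the sensors ATF6, IRE1 (Ern1) and PERK start the unfolded protein response, in which ATF6 and XBP1 switch on chaperone genes through the ER stress response element of their promoters. This element, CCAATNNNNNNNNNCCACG, was searched on both strands in the RefSeq windows of 250 bases before to 50 after the start (GRCm38.p6), and it stands in 39 of 32851 windows, 0.119%. Of the 25 genes of this response that were tested, 25 rose and 0 fell, 18 by at least 2-fold, with a median log2 fold change of 1.92. The element was found for 8 of the 20 that have a window: Hspa5, Hsp90b1, Creld2, Dnajc3, Calr, Pdia6, Canx and Syvn1. Log2 fold changes of these ran from 0.90 (Syvn1) to 3.27 (Hspa5). Those of the genes with a window but no element ran from 0.92 (Xbp1) to 4.35 (Sdf2l1). A match in letters is a description and not a shown binding site. The windows of the genes with the largest change are printed to show where the element lies, 5′ to 3′, with matches in capitals.
Sdf2l1, chr16:17132334-17132633, minus strand: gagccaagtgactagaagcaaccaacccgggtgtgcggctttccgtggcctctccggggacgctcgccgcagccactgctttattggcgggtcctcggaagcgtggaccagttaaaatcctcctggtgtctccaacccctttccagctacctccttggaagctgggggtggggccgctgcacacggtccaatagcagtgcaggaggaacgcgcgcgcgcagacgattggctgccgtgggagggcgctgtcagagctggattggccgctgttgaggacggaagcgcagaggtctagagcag
Hspa5, chr2:34771840-34772139, plus strand: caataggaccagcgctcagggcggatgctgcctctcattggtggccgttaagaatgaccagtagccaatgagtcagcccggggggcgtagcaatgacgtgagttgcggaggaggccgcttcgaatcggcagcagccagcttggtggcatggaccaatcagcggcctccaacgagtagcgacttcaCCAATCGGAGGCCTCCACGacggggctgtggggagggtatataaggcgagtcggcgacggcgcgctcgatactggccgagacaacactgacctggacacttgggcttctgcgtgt
Hsp90b1, chr10:86705395-86705694, minus strand: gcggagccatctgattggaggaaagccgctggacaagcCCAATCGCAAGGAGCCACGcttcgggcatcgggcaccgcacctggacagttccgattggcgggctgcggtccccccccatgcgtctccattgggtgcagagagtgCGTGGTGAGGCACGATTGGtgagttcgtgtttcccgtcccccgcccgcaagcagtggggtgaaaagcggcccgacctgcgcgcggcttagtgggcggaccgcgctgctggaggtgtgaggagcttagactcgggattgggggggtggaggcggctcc
Hsp90b1 holds 2 matches, 1 on each strand, and Hspa5 1. Sdf2l1 holds none by these letters.

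Sdf2l1, a partner of the DnaJ co-chaperones, had the largest change of the list. It stood at 8.65, 7.97 and 7.33 CPM in high glucose and at 159.9, 160.1 and 168 in the inhibitor control, a log2 fold change of 4.35 (SE 0.0788) with an adjusted p of 6.9e-20. Hspa5, the chaperone BiP that holds the sensors inactive, stood at 867, 878 and 871 and then 7854, 8813 and 8641 CPM, 3.27 (SE 0.0544) on the log2 scale. Hsp90b1, the HSP90 of this compartment, reached 26960.0, 29163 and 31147 CPM from 3095, 3361 and 3429, the largest gain in mean level of the genes named here. Pdia4, a protein disulfide isomerase, went from 492, 506 and 378 to 2672, 2808 and 2796 CPM, and the calcium-binding chaperone Calr from 1609 to 6704. Herpud1, of the degradation complex, and Creld2, a secreted stress protein, rose (log2 fold changes 3.03 and 3.03). The sensors Ern1 and Atf6 rose (log2 fold changes 2.10 and 0.86), and the factor Xbp1 (log2 fold change 0.92). Summed over the 26 genes matched, the list took 9686 to 10048 CPM in the high glucose libraries. In the inhibitor control libraries it took 55390.0 to 61526 CPM.

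Hspa5 and Pdia4 lay between the other groups in the mimic control. Hspa5 was at 3906, 4084 and 4053 CPM there and Pdia4 at 686, 712 and 673. Tested directly, the inhibitor control was higher than the mimic control for 21 of 25 genes and lower for 3, where 38.5% of all genes were higher and 35.7% lower at an adjusted p under 0.05. The median difference was 1.13 on the log2 scale. Pdia4 differed by 2.00 (adjusted p 2.5e-14), Creld2 by 1.95 and Hspa5 by 1.07, all by edgeR's quasi-likelihood test.

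The ATF4 arm rose as well. ATF4 is the transcription factor translated when kinases such as PERK or GCN2 phosphorylate eIF2-alpha, and it acts on amino acid transporters, serine synthesis and the apoptosis factor CHOP (Ddit3). Of 30 genes, 24 rose and 4 fell, with 20 at least 2-fold higher and a median of 1.67. Ddit3 stood at 89.6, 80.2 and 82.0 CPM in high glucose and at 1489, 1412 and 1432 in the inhibitor control, 4.10 (SE 0.0667) on the log2 scale. Chac1, which degrades glutathione, went from 4.40, 4.91 and 4.11 to 82.3, 80.9 and 79.1 CPM. Slc7a11, the cystine transporter, went from 5.62 to 71.9 CPM and Slc7a1, the transporter of cationic amino acids, from 31.3 to 344. Fgf21, a stress hormone, reached 1.10, 1.49 and 1.01 CPM from 0.0284, 0.116 and 0. Atf4 itself rose (log2 fold change 2.47). Ddit4 and Gdf15, which are also counted among ATF4 targets, fell (log2 fold changes -1.45 and -1.09, and -0.87 and -0.55 with the correction), and Nupr1 (log2 fold change -0.32). Cebpb fell (log2 fold change -0.43), but its value was 0.21 with correction for GC content and length.

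The composite C/EBP-ATF element that ATF4 binds, TGATGNAA, was found on either strand in 3.97% of all windows and in those of 9 of the 27 ATF4 genes that have one. Besides Fgf21 and Chac1, the holders Slc7a11, Trib3, Atf3 and Asns had log2 fold changes of 3.68, 3.44, 2.57 and 0.59. The holders Vldlr, Nupr1 and Pck2 were at -0.08, -0.32 and 0.03. The window of Ddit3 (log2 fold change 4.10) does not hold the element. Both windows printed here hold it, in each case once and on the reverse strand. They are those of the 2 genes of the list with the largest fitted change.
Fgf21, chr7:45615441-45615740, minus strand: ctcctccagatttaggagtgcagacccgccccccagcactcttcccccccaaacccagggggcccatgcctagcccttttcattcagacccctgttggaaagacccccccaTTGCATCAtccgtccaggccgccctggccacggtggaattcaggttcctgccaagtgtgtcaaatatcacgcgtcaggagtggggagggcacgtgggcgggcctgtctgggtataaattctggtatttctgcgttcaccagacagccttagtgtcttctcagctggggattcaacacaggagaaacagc
Chac1, chr2:119350992-119351291, plus strand: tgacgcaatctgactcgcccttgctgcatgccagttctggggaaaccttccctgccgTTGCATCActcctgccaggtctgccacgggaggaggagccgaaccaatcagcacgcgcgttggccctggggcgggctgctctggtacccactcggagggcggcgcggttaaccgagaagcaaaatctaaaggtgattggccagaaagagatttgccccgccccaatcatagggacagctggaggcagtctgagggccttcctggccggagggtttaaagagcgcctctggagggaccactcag
Against the mimic control, ATF4 genes divided: 8 were higher and 20 lower in the inhibitor control. Slc7a11 was higher and Slc7a1 lower (log2 differences of 1.69 and -1.05). For Ddit3 the difference was -0.10 (adjusted p 0.14 by edgeR).

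Aminoacyl-tRNA synthetases, which load amino acids onto transfer RNAs, rose in 16 of 20 cytosolic cases and fell in 2, with 11 at least 2-fold higher. Tars1 (threonine) rose from 319 to 1239.6 CPM, Iars1 (isoleucine) from 55.8 to 206 and Nars1 (asparagine) from 504 to 1810.3. Qars1 (glutamine) and Mars1 (methionine) fell (log2 fold changes -0.90 and -0.44, the latter -0.24 with the correction). Levels in the mimic control were higher still for 16 of the 20 genes. Of 16 heat shock proteins and their partners, 6 rose and 8 fell, where 40.1% and 39.3% of all genes did. Hspb1 fell from 484 to 114 CPM, Bag3 from 244 to 78.7 and Hsp90ab1 from 11159 to 6299.8 (log2 fold change -0.82, and -0.47 with the correction), while Hspd1 of mitochondria rose (log2 fold change 1.35) and Hspa9, the mitochondrial HSP70, went from 1026 to 3918 CPM.

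**Figure D3:**
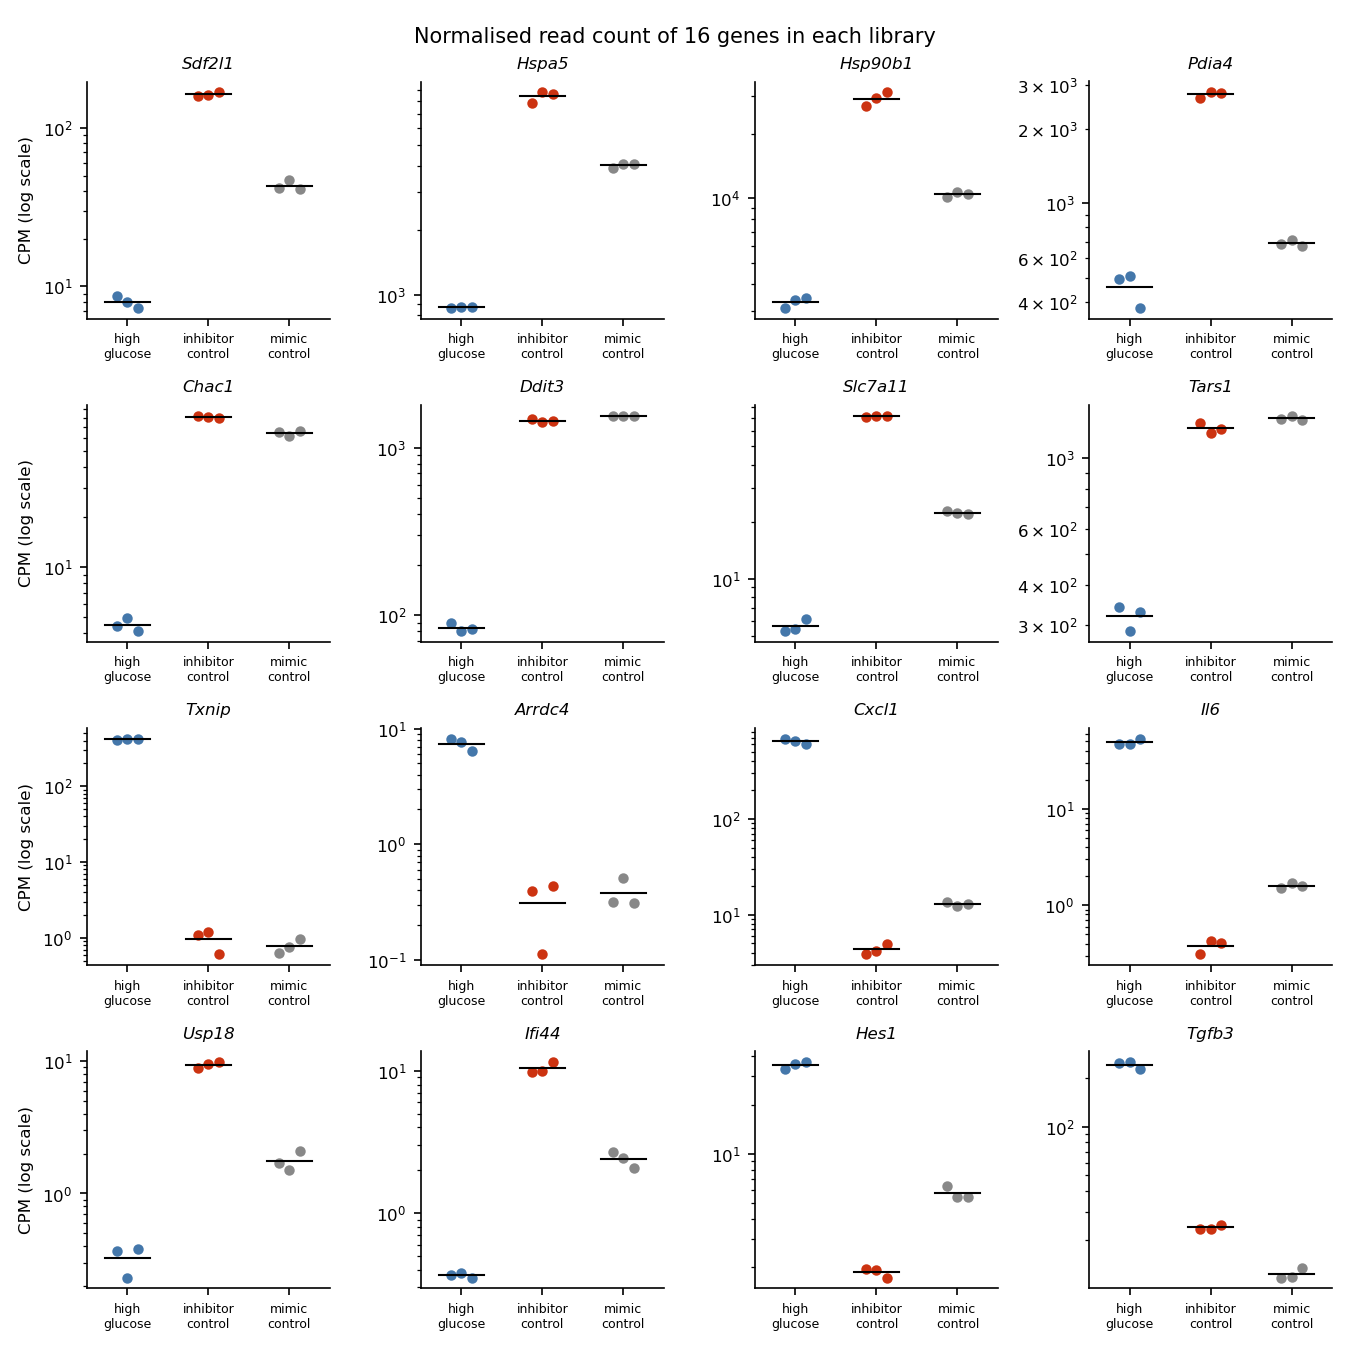
CPM (log axes) of 16 genes in each of 3 libraries (points) of high glucose, inhibitor control and mimic control, with the mean as a line. Inhibitor control and high glucose libraries do not overlap in any panel, as for 80.7% of all genes tested. Txnip, Arrdc4, Cxcl1, Il6, Hes1 and Tgfb3 are the 6 that lie lower in the inhibitor control.

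Both cell groups are labelled as high glucose treated, and Txnip and its paralog Arrdc4 stood lower in the transfected one. Txnip is the best known target of MondoA (Mlxip), which enters the nucleus when glucose 6-phosphate is high and binds carbohydrate response elements. Txnip (chr3:96465267-96469201, plus strand, GRCm39) stood at 406, 422 and 423 CPM in high glucose and at 1.10, 1.18 and 0.607 in the inhibitor control, -8.75 (SE 0.193) on the log2 scale with an adjusted p of 9.3e-19. In the mimic control it was at 0.633, 0.763 and 0.958 CPM, and the difference between the controls was 0.30 (adjusted p 0.5 by edgeR). Its paralog Arrdc4 stood at 8.17, 7.69 and 6.38 CPM in high glucose and 0.394, 0.112 and 0.433 in the inhibitor control. Of the 13 tested genes of the list, which holds MondoA, its partners and genes linked to glucose sensing, 11 fell and 2 rose, with 5 at least 2-fold lower. Pik3ip1, an inhibitor of PI3 kinase, fell from 24.7 to 6.12 CPM, and Mxd4, a MAX partner, from 158 to 43.0. The risers were MondoA itself (log2 fold change 0.41, and 0.69 with the correction) and the glucose transporter Slc2a1 (log2 fold change 1.30).

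A pair of E-box-like repeats, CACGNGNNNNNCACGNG, was searched on both strands and found in 16 windows of 32851, 0.0487%. Txnip holds 1 match and Arrdc4 none by these letters.
Txnip, chr3:96557707-96558006, plus strand: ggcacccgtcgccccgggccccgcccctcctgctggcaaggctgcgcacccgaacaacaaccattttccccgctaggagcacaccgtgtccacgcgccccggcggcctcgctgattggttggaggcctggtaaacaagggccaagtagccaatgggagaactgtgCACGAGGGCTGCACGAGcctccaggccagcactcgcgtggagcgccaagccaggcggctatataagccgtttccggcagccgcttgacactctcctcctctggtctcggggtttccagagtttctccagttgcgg
Arrdc4, chr7:68749189-68749488, minus strand: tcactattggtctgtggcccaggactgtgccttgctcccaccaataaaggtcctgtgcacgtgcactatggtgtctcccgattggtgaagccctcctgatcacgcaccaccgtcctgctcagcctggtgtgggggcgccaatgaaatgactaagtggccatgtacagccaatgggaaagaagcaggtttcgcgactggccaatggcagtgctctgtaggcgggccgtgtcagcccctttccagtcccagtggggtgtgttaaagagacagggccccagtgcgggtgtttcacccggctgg
The match in Txnip lies upstream of the start on the strand of the gene, and it was the only match among the 12 genes of the list with a window.

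Glucose transport and glycolysis changed by less. Of 24 genes tested, 14 rose and 7 fell, 4 and 3 of them by at least 2-fold, and the median was 0.35 (0.53 with correction for GC content and length). Slc2a1, the glucose transporter GLUT1, rose from 76.5 to 189 CPM, the hexokinase Hk2 from 141 to 382 and Pgk1 from 340.1 to 775. The muscle phosphofructokinase Pfkm fell from 135 to 33.0 CPM. Pfkfb4 and Pfkfb3, which make its activator, also fell (log2 fold changes -1.34 and -0.74). Hypoxia-inducible genes rose in 12 of 18 cases and fell in 4. Ndrg1 rose from 272, 285 and 277 to 1391, 1556 and 1548 CPM, Ero1a, which oxidises disulfide isomerases, from 76.6 to 281, and Car9, a carbonic anhydrase, from 1.95 to 7.63. Vegfa (log2 fold change 0.06) and Egln3 (log2 fold change 0.00) did not pass the test, but Vegfa passed with the correction (0.19, adjusted p 0.0014 by edgeR) and with upper quartile scaling (0.14, adjusted p 0.0087).

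Inflammatory genes fell. NF-kB is the factor that cytokines and pattern receptors activate, and its targets include chemokines and its own inhibitors. Of 24 such genes, 19 fell and 2 rose, 17 fell by at least 2-fold, and the median was -2.78. The chemokine Cxcl1 stood at 685, 647 and 610.0 CPM in high glucose and 3.85, 4.21 and 4.97 in the inhibitor control. Il6, the cytokine, stood at 47.0, 47.1 and 53.1 CPM in high glucose and 0.309, 0.421 and 0.404 in the inhibitor control. Ccl2, the monocyte chemokine, stood at 44.3, 38.4 and 45.2 and then 1.35, 1.18 and 1.18 CPM. The groups did not overlap for any of the 3, as for 80.7% of all genes tested. Their log2 fold changes were -7.22 (SE 0.126), -7.01 (SE 0.155) and -5.10 (SE 0.129), with adjusted p-values of 5.5e-20, 9.4e-19 and 6.8e-18. Cxcl5, Ccl7, Il33, Lif, Vcam1 and the inhibitor Nfkbia fell (log2 fold changes -3.98 to -4.31). Subunits fell too, Relb (log2 fold change -2.79), Nfkb2 (log2 fold change -2.11) and Nfkb1 (log2 fold change -0.78, and -0.38 with the correction). Lcn2 (lipocalin 2) and Tnfaip2 rose (log2 fold changes 2.16 and 0.71, the latter 1.25 with the correction). Both controls were low: Ccl2 was at 1.06, 1.11 and 1.17 CPM in the mimic control, while Cxcl1 at 13.5, 12.4 and 12.9 and Il6 at 1.50, 1.72 and 1.58 stayed above the inhibitor control (log2 differences of -1.57 and -2.07, adjusted p 1.8e-09 and 7.7e-08 by edgeR).

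Immediate early genes, which growth factors and stress induce within minutes, fell in 18 of 22 cases, 15 by at least 2-fold. Fos stood at 44.8, 43.4 and 37.1 CPM in high glucose and 1.35, 1.68 and 1.36 in the inhibitor control, a log2 fold change of -4.83 (SE 0.924) with an adjusted p of 8.2e-05 by edgeR. That p depends on libraries outside the comparison. It was 1.9e-20 with the 6 compared libraries alone and 4.3e-24 without replicate 2 of the group given the miR-200a-3p mimic, both by edgeR. DESeq2 gave no adjusted p for Fos. The orphan receptor Nr4a1 went from 57.7 to 2.76 CPM and the phosphatase Dusp1 from 110.2 to 13.8. Egr1 and Jun fell (log2 fold changes -2.29 and -1.87). Myc and Atf3 were the exceptions with a rise of 2-fold or more (log2 fold changes 1.84 and 2.57), and Klf4 rose (log2 fold change 0.57, and 0.93 with the correction). In the EGF receptor system, 6 rose and 12 fell of 19 tested. Egfr fell (log2 fold change -1.90) and the ligands Hbegf, Btc and Ereg (log2 fold changes -2.15, -2.08 and -1.97). The feedback genes Dusp6 (53.8 to 10.8 CPM) and Lrig1 (167 to 33.2 CPM) fell, and Spry1 rose from 0.601 to 3.06 CPM.

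Notch receptors and their targets fell. Notch receptors are cut on contact with a ligand on a neighbouring cell and then act with Rbpj on Hes and Hey repressors. Of 13 genes, 10 fell, 9 by at least 2-fold, and 1, Rbpj, rose (log2 fold change 0.44, and 0.27 with the correction). Hes1 stood at 33.1, 35.5 and 36.7 CPM in high glucose and 1.97, 1.93 and 1.73 in the inhibitor control. Hey1 went from 30.5 to 2.10 CPM, and Notch1 from 82.9 to 6.13. Notch3 fell (log2 fold change -3.14). Among ligands, Jag1 fell (log2 fold change -2.21). Jag2 did not pass the test (log2 fold change -0.16). It was -0.25 without inhibitor control replicate 1 (adjusted p 0.015 by edgeR) and 0.65 with the correction (adjusted p 9.3e-08), and limma on log2(FPKM + 1) and log2(FPKM + 0.1) gave adjusted p-values of 0.036 and 0.0497.

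TGF-beta ligands fell. Of 26 genes of TGF-beta and BMP signalling, 18 fell and 3 rose. The ligands Tgfb1, Tgfb2 and Tgfb3 fell (log2 fold changes -2.42, -3.47 and -3.33), Tgfb3 from 246, 249 and 227 to 23.6, 23.4 and 24.9 CPM. The receptor Tgfbr1 rose (log2 fold change 1.27, and 0.76 with the correction), and Tgfbr2 and the co-receptor Tgfbr3 fell (log2 fold changes -0.47 and -1.27). The signal carrier Smad3 fell (log2 fold change -2.01). The Wnt list was mixed, with 7 higher and 10 lower of 22. The antagonist Dkk2 fell from 68.0 to 4.39 CPM and the feedback target Axin2 rose (log2 fold change 1.87). Ctnnb1 (beta-catenin), at 189.7 ± 16.0 and 185 ± 2.39 CPM, had a log2 fold change of -0.04 (SE 0.0536) with an adjusted p of 0.55 by edgeR. YAP and TEAD targets gave 6 higher and 9 lower of 16, with Ankrd1, a stretch-induced muscle protein, up from 195 to 1756 CPM.

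Interferon-stimulated genes rose. These genes are switched on by type I interferon after sensors such as RIG-I (Rigi), MDA5 (Ifih1) or cGAS bind foreign nucleic acid. Of 28 genes, 23 rose and 3 fell, 17 rose by at least 2-fold, and the median was 1.50. Usp18, the protease that removes ISG15, stood at 0.369, 0.231 and 0.379 CPM in high glucose and 8.83, 9.59 and 9.88 in the inhibitor control. Ifi44 stood at 0.369, 0.376 and 0.352 CPM in high glucose and 9.90, 10.0 and 11.6 in the inhibitor control. Oas2, which makes the activator of RNase L, stood at 0.142, 0.202 and 0.0541 and then 2.08, 2.24 and 2.34 CPM. The high glucose and inhibitor control libraries did not overlap for these 3 genes, as for 80.7% of all genes tested. Mx2 rose (log2 fold change 2.73) and Isg15 (log2 fold change 1.87). Mx1, Ifit2 and Ifi35 fell (log2 fold changes -2.12, -0.53 and -0.47), and Ifit2 was at -1.01 with the correction. Summed CPM of the 29 genes was 249 to 258 in high glucose, 387 to 414 in the inhibitor control and 161 to 163 in the mimic control. Tested against the mimic control, 25 of 28 were higher in the inhibitor control and 0 lower, with a median difference of 2.41. Oas2 had 0, 0.0318 and 0 CPM in the mimic control.

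Among sensors and adaptors, the double-stranded RNA sensor Ifih1 rose from 3.32 to 10.1 CPM and the RNA editor Adar from 47.8 to 100.3. Rigi rose (log2 fold change 0.29, and 0.16 with the correction) and the RNA-activated kinase Eif2ak2 (0.93, and 0.61 with the correction). The adaptors Mavs and Sting1 and the factor Irf3 fell (log2 fold changes -1.37, -0.84 and -1.02, the last -0.62 with the correction). Over the list 7 rose and 4 fell of 14 tested. Of the genes of class I antigen presentation, 3 rose and 10 fell of 14 tested. Tapbp (tapasin), which loads peptides, stood at 166, 173 and 159 CPM in high glucose and 16.3, 14.5 and 15.1 in the inhibitor control. The transporter Tap1 fell from 7.29 to 1.47 CPM, H2-Q4 (log2 fold change -2.18), H2-D1 (log2 fold change -1.33) and B2m, the shared light chain (log2 fold change -0.90). Class I genes have similar copies, so their values are uncertain. The risers were Calr and Pdia3, chaperones of the endoplasmic reticulum, and the regulator Nlrc5 (log2 fold change 1.70).

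Matrix genes were among the largest losses in level. Col3a1, the chain of type III collagen, went from 9247, 9662 and 8588 CPM to 1516, 1598 and 1533, -2.56 (SE 0.0511) on the log2 scale, and to 613, 598 and 605 in the mimic control. Of 21 collagen chains, 18 fell and 2 rose, 13 fell by at least 2-fold, and the median was -1.38 (-0.86 with correction for GC content and length). Col1a1 fell from 590.2 to 110.4 CPM, Col5a3 from 1575 to 168 and Col8a1 from 84.4 to 7.41, and Col12a1 rose (log2 fold change 1.19). Summed over the 22 chains, collagen took 20072 to 22769 CPM in the high glucose libraries and 5740.3 to 5962 in those of the inhibitor control. Of 20 genes that process collagen, 15 fell. The crosslinking enzymes Loxl3 and Loxl1 fell (log2 fold changes -2.88 and -2.28) and the procollagen protease Bmp1 (log2 fold change -1.74, and -1.10 with the correction), and Loxl4 rose (log2 fold change 1.55).

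Syndecans and glypicans, the heparan sulphate carriers of the cell surface, and their enzymes fell in 16 of 16 cases tested, 8 by at least 2-fold, with a median of -1.02 (-0.65 with the correction). Sdc1 stood at 584, 566 and 571 CPM in high glucose and 64.1, 64.1 and 61.6 in the inhibitor control. The chain polymerase Ext1 fell from 393 to 73.7 CPM and Gpc1 from 788 to 236. Among matrix glycoproteins, 5 rose and 16 fell of 25 tested: Tnc (tenascin C) fell from 233 to 46.1 CPM, the hyaluronan synthase Has1 from 143 to 19.2 and Fn1 (fibronectin) from 7357 to 4686, -0.65 on the log2 scale and -0.30 with the correction. Igfbp5, a secreted binding protein of insulin-like growth factors, fell from 3699 to 866 CPM. Matrix proteases divided into 10 higher and 12 lower. The collagenase Mmp13 rose from 2.33 to 18.5 CPM, Mmp10 from 1.27 to 11.4 and the aggrecanase Adamts5 from 6.77 to 48.3, while Mmp2, Mmp14 and the inhibitor Timp1 fell (log2 fold changes -1.92, -1.55 and -1.76).

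Laminin chains moved in both directions. The chains Lama4 and Lamb1 fell, from 183 to 33.6 and from 841 to 165 CPM, and Lama1 and Lama3 rose, from 0.570 to 8.89 and from 2.28 to 33.0. The desmosome proteins Jup and Dsp fell (log2 fold changes -3.09 and -1.81). Integrins, their receptors, fell in 10 of 16 cases and rose in 3. Itga7, the laminin receptor of muscle, fell from 2606 to 459.9 CPM and Itgb3 from 274 to 25.9. Among factors of the epithelial-mesenchymal transition, Snai1 fell (log2 fold change -3.42), Prrx1 (log2 fold change -2.41) and Twist2 (log2 fold change -1.85), and the cadherins Cdh11 and Cdh2 rose (log2 fold changes 2.17 and 0.72). Zeb1 and Zeb2, known targets of the miR-200 family, went in opposite directions: Zeb1 stood at 129, 145 and 146 CPM and then 71.5, 69.0 and 68.9, and Zeb2 at 248, 275 and 304 and then 401, 388 and 372, log2 fold changes of -1.01 (SE 0.0619) and 0.49 (SE 0.0654). For Zeb2 the correction for GC content and length turned the value to -0.18 (adjusted p 0.0020 by edgeR).

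Genes of mitosis rose. Of 30 genes of G2 and M phase, 29 rose, 26 by at least 2-fold, and 1, Cdc25b, fell (log2 fold change -1.20). Mki67, the proliferation antigen, stood at 34.9, 40.4 and 44.4 CPM in high glucose and 324, 331 and 324 in the inhibitor control, and the kinetochore protein Cenpf at 20.3, 23.7 and 25.5 and 206, 225 and 219. Ccnb1 and Plk1 rose (log2 fold changes 2.56 and 1.55). Of replication genes, 21 rose and 7 fell of 34 tested, with a median of 0.54. Mcm3, of the replicative helicase, went from 14.1 to 55.3 CPM, and to 305 in the mimic control. Ccne1 and E2f1, which start the phase, fell (log2 fold changes -2.50 and -1.91). Of the 34 replication genes, 34 were lower in the inhibitor control than in the mimic control, with a median difference of -1.50.

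Cyclin-dependent kinase inhibitors and genes of quiescence fell in 11 of 16 cases and rose in 3. Cdkn1a (p21) went from 291, 279 and 264 CPM in high glucose to 57.7, 59.9 and 58.0, and stood at 199.7, 188 and 194 in the mimic control. Among the other kinase inhibitors, Cdkn2d and Cdkn1b fell (log2 fold changes -2.03 and -0.51) and Cdkn1c rose (log2 fold change 1.62, adjusted p 0.0016 by edgeR), the list's 1 rise of at least 2-fold. Ccnd3 fell from 89.0 to 14.1 CPM and Gas1 from 45.4 to 14.6 (log2 fold change -1.64, and -1.09 with the correction). Targets of p53, the factor that answers DNA damage, fell in 16 of 25 cases and rose in 6, with a median of -0.44 (-0.72 with the correction). Fas fell from 6.53 to 0.661 CPM, Phlda3 (log2 fold change -2.02) and Mdm2 (log2 fold change -0.66). The ribonucleotide reductase subunit Rrm2b rose (log2 fold change 1.59, and 0.997 with the correction). Trp53, which encodes p53, rose too (log2 fold change 0.81).

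Genes that build ribosomes rose. Of 25 genes of the nucleolus, 23 rose and 0 fell, 17 by at least 2-fold, with a median of 1.35. The pseudouridine synthase Dkc1 stood at 9.64, 9.65 and 10.1 CPM in high glucose and 71.8, 69.8 and 73.9 in the inhibitor control. Ncl (nucleolin) rose from 1441 to 5406 CPM, Nop58 from 27.8 to 169 and the helicase Ddx21 from 110.5 to 555. Ribosomal protein genes rose in 37 of 45 cases and fell in 2, none of them by 2-fold or more, with a median of 0.33. The initiation factor Eif3a rose from 2293 to 4752 CPM. Of splicing factors, 26 rose and 3 fell of 31 tested. The SR proteins Srsf1, Srsf2 and Srsf3 rose (log2 fold changes 3.40, 2.74 and 2.59) and the kinases Clk1 and Clk4 (log2 fold changes 2.20 and 2.04, the latter 1.31 with the correction), Srsf1 from 14.97, 15.8 and 16.9 to 154, 172 and 178 CPM.

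Proteasome subunits fell in 20 of 30 cases and rose in 3, none by 2-fold. Their median was -0.27, and -0.49 with the correction. Psmd11 fell from 95.3 to 48.0 CPM (log2 fold change -0.99, and -1.77 with the correction, past 2-fold) and Psmd2 from 923 to 497. Nuclear-encoded respiratory subunits fell in 24 of 34 cases, among them Uqcrc1 of complex III (log2 fold change -0.89, and -0.56 with the correction). Autophagy and lysosome genes fell in 18 of 30 cases and rose in 9. Tfeb, the master regulator of lysosomes, fell from 18.1 to 2.33 CPM and the protease Ctsd from 123 to 44.4. Gpnmb, a lysosomal stress protein, rose from 2.75 to 23.4 CPM and the autophagy receptor Sqstm1 (log2 fold change 1.05). Uptake genes of the clathrin and caveolae routes were mixed: 6 rose and 16 fell of 25 tested. Dnm1 (dynamin 1) fell from 559 to 89.8 CPM and Cav1 (log2 fold change -1.10), and the endosome tether Eea1 rose from 151 to 479.8 CPM.

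Targets of NRF2, the factor of oxidant defence that Keap1 holds back, fell in 19 of 25 cases and rose in 6. Nqo1 fell from 78.6 to 23.9 CPM, Osgin1 from 17.8 to 4.70 and Nfe2l2, which encodes NRF2 (log2 fold change -1.34). Hmox1 (heme oxygenase) rose from 22.7 to 112 CPM, and Slc7a11, counted with the ATF4 genes above, belongs to this list too. Keap1 fell (log2 fold change -0.56), but correction for GC content and length turned its value to 0.15 (adjusted p 0.013 by edgeR).

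Lipid genes moved in several directions. Of 27 genes of cholesterol synthesis and uptake, 15 rose and 10 fell. The cyclase Lss rose from 31.0 to 120.5 CPM and Idi1 (log2 fold change 1.28, and 0.67 with the correction). The kinase Pmvk fell from 331 to 92.4 CPM. Fatty acid oxidation fell in 13 of 23 cases, with log2 fold changes of -1.14 for Cpt1a, -1.15 for Acadm and -1.40 for Acadvl, and Ppargc1a, a co-activator of mitochondrial growth, rose from 0.187 to 2.87 CPM. In fatty acid synthesis, Acss2 and Me1 fell (log2 fold changes -1.67 and -1.47) and Fasn and Elovl6 rose (log2 fold changes 0.56 and 1.21), Fasn to 1.07 with the correction.

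Clock genes moved in both directions. Of 20 clock genes, 13 fell and 6 rose, 11 and 4 of them by at least 2-fold. Dbp stood at 86.7, 82.3 and 76.1 CPM in high glucose and 3.57, 2.75 and 2.86 in the inhibitor control, the repressor Nr1d1 at 64.8, 58.7 and 53.3 and 9.42, 8.24 and 8.12, and Per3 fell (log2 fold change -3.37). Clock and Bmal1 rose (log2 fold changes 2.32 and 0.76) and Ciart, a repressor (log2 fold change 3.52). Nr1d1 was at 87.2, 72.5 and 76.4 CPM in the mimic control, a log2 difference between the controls of -3.19 (adjusted p 4.2e-16 by edgeR). The time of harvest of the untransfected cells is not stated in the labels. Among imprinted genes, the growth-linked RNA H19 fell from 2411, 2476 and 2012 to 617, 632 and 599 CPM and Igf2r from 542 to 92.2, and Igf2 did not pass the test (log2 fold change 0.40), but did with the correction (0.94, adjusted p 0.0042 by edgeR). Genes known to escape X inactivation rose in 8 of 11 cases, among them Ftx and Jpx, RNA genes next to Xist (log2 fold changes 3.52 and 3.02), and Ddx3x (log2 fold change 1.35). X-linked protein-coding genes had a median of 0.20 over 424 genes, against -0.05 over 12622 autosomal ones, and -0.21 against -0.05 with the correction for GC content and length.

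Of genes of microRNA processing, 10 rose and 4 fell of 16 tested, with the export factor Xpo5 up (log2 fold change 1.28), Dgcr8 (log2 fold change 1.05), Dicer1 (log2 fold change 0.69), and Drosha and Ago2 lower (log2 fold changes -0.45 and -0.48), Drosha at -0.28 with the correction. The list's median was 0.43, and 0.05 with the correction. Among chromatin enzymes, 12 rose and 11 fell of 23 tested: the methyltransferase Dnmt3b rose (log2 fold change 2.37) and Ezh2 (log2 fold change 0.83), and Dnmt3a, Dnmt1 and Ezh1 fell (log2 fold changes -1.36, -0.90 and -1.57), Dnmt1 at -0.51 with the correction. Replication-dependent histone genes, whose messengers lack a poly(A) tail, gave 3 higher and 3 lower of 8, with H1f2 down from 69.7 to 25.7 CPM.

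Sarcomere and contractile genes fell more often than they rose. Of 36 genes of the list, 23 fell and 10 rose, where 39.3% and 40.1% of all genes did. Des (desmin), the intermediate filament of muscle, fell from 5947, 5716 and 4679.8 CPM to 1138, 1079.9 and 1082, Cryab (log2 fold change -3.06), Acta1 from 14.0 to 2.76 and the embryonic myosin Myh3 from 38.9 to 11.1. The risers, singled out after their values were seen, included Tagln, Myl9, Actg2 and Acta2, which smooth muscle expresses, Tagln from 2.50, 1.76 and 2.08 to 23.8, 19.9 and 19.7 CPM and Myl9 from 1.12 to 20.8, and Acta2 (log2 fold change 2.08). Myh11, the smooth muscle myosin, and Mylk, a myosin light chain kinase, fell (log2 fold changes -0.60 and -0.73). Myocd, the co-activator of smooth muscle and heart genes, had no read in high glucose and 0.340 CPM in the inhibitor control. Myh9 (non-muscle myosin) fell from 10686 to 8194 CPM (log2 fold change -0.38), and with correction for GC content and length the value was 0.20 (adjusted p 0.00027 by edgeR). Among calcium pumps, Atp2b4 of the plasma membrane fell from 249.9 to 11.6 CPM, and Atp2a3 and Atp2a2 of the reticulum rose, from 1.46 to 36.0 and from 253 to 593. The transcription factor Myf5, of skeletal muscle precursors, rose from 15.1 to 53.3 CPM (log2 fold change 1.82, and 1.09 with the correction).

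Defining markers of atrial cardiomyocytes were at or near 0 in both groups. Nppa, Myh6, Pln, Gja5 and Actc1 had means of at most 0.339 CPM, Nppa and Pln with 0 in the inhibitor control. Nppb rose from 0.113, 0.0578 and 0.162 to 2.70, 2.83 and 3.12 CPM and stayed low. Myh7 was at 0.246 and 0.491 CPM, a log2 fold change of 0.997 (SE 0.397) with an adjusted p of 0.028 and overlapping libraries, by edgeR, which became 0.094 without high glucose replicate 1, 0.14 without high glucose replicate 3, 0.14 without inhibitor control replicate 1 and 0.079 with DESeq2. That of limma on log2(FPKM + 1) was 0.063. The log2 value was 1.53 (adjusted p 0.0045 by edgeR) without high glucose replicate 2 and 1.56 (adjusted p 0.0010) with the correction. The 21 markers listed summed to 5417 to 6657 CPM in high glucose and to 1824 to 1889.6 in the inhibitor control. Nearly all of this sum was Des, Gja1, Atp2a2 and Tnnt2. Of the 13 markers tested, 5 rose and 5 fell, with a median log2 fold change of -0.09 (0.0065 with the correction). The sum therefore does not show that the markers fell as a group. Fibroblast markers summed to 18342 to 20399 and 7856 to 8305 CPM over 12 genes, with 8 lower and 1 higher of 11 tested, Postn (log2 fold change 2.13, and 1.16 with the correction). Skeletal myoblast markers summed to 90.3 to 104 and 72.4 to 81.2 CPM. Of the 10 tested, 6 fell and 1 rose, with a median log2 fold change of -0.97. Epithelial markers summed to 126 to 142.3 and 163 to 180.1 CPM, macrophage ones to 51.4 to 55.3 and 35.7 to 41.6, and endothelial ones to 0.851 to 1.51 and 1.27 to 1.60. Cdh1, Epcam, Pecam1 and Emcn, which define epithelium and endothelium, were at most 0.159 CPM in either group, and Ptprc of leukocytes was at 0.934 and 1.02. The cells are called HL-1 here by their label, and whether a change in the mix of cells has a part in these differences was not tested. In bulk samples, fewer cells of a type and less RNA per cell cannot be told apart.

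**Figure D4:**
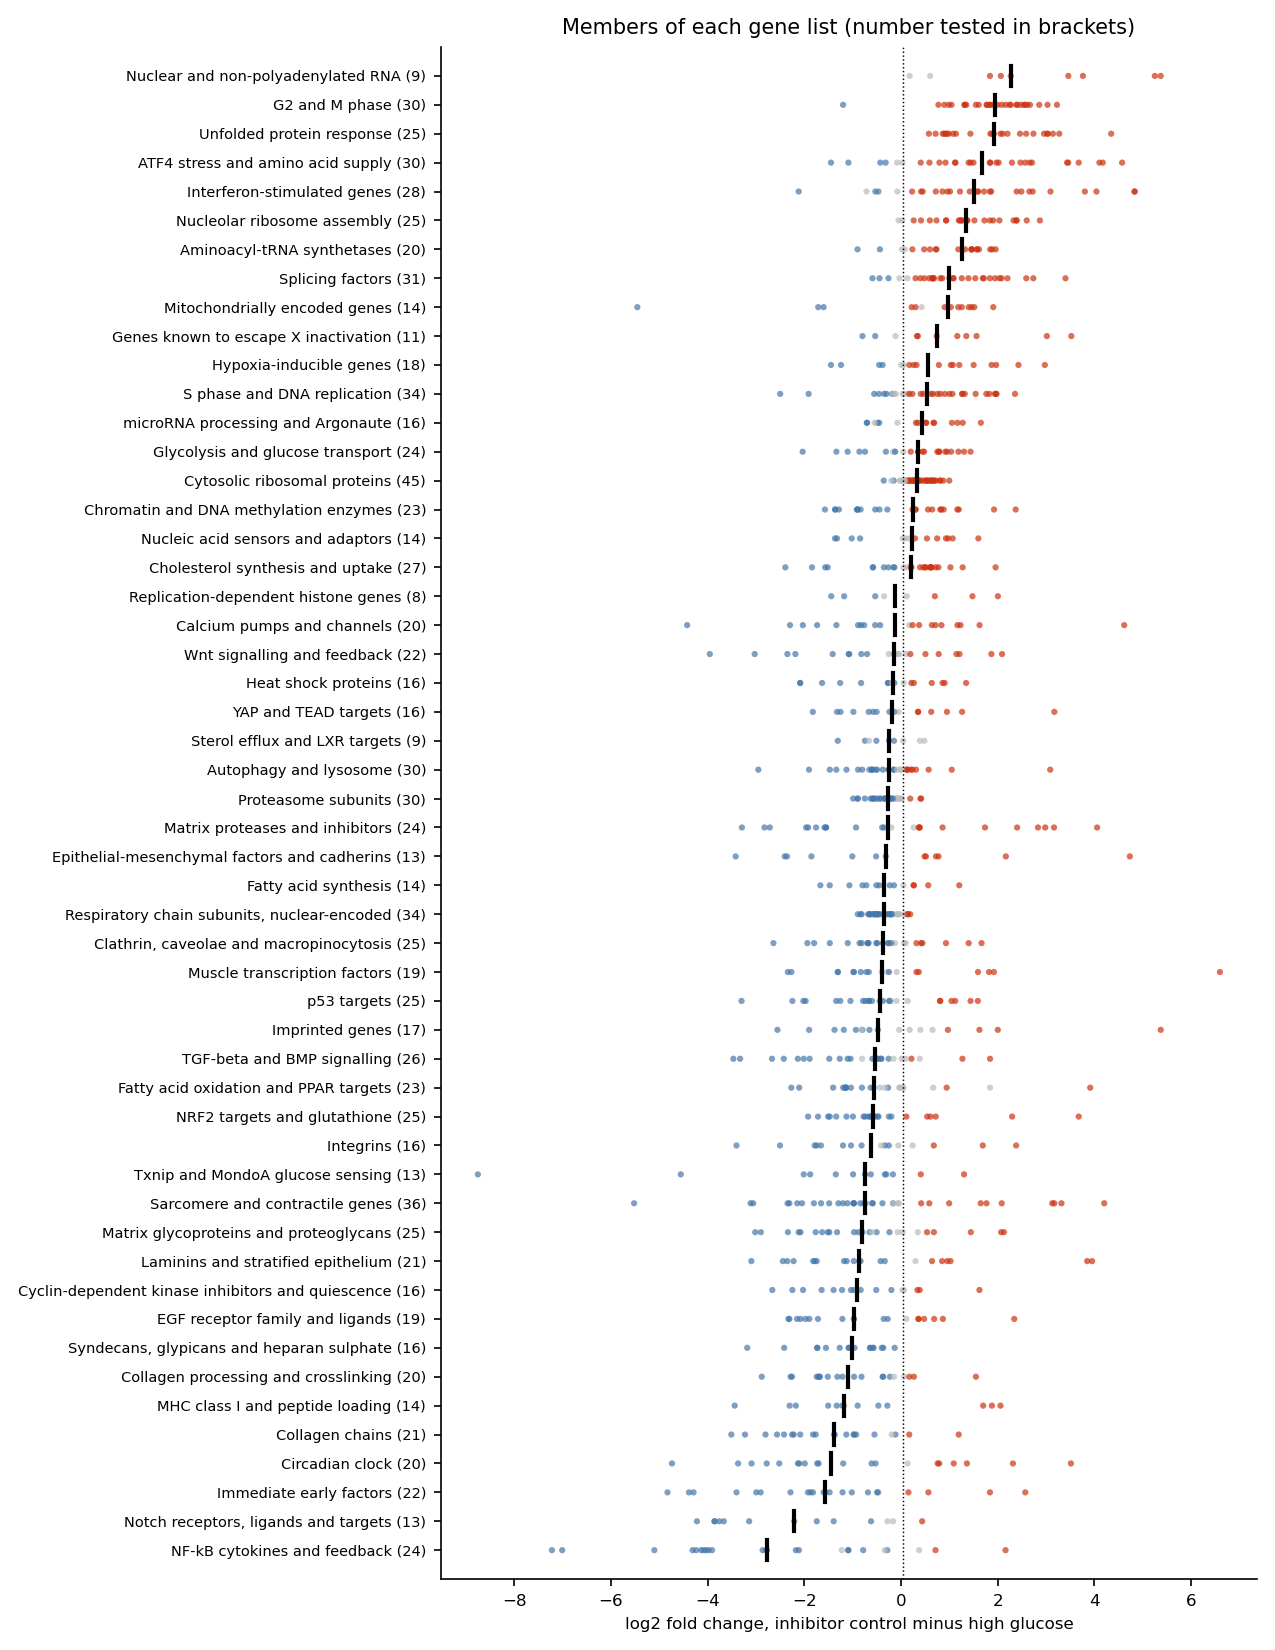
Log2 fold change, inhibitor control minus high glucose (horizontal axis), of each tested member (points) of each gene list (rows, with the number tested), in red where higher and blue where lower at an adjusted p under 0.05 and in grey otherwise, with the list's median as a black bar and the median of all genes, 0.04, as a dotted line. Medians run from -2.78 for NF-kB genes to 2.27 for nuclear RNAs.

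The 2 negative controls were not alike. Tested directly, 5796 genes were higher and 5385 lower in the inhibitor control than in the mimic control, 38.5% and 35.7% of the 15074. Beyond the groups above, cholesterol genes were higher in the inhibitor control in 25 of 27 cases (median difference 1.46). Hypoxia-inducible genes were so in 17 of 18 and skeletal myoblast markers in 10 of 10. Against high glucose, the medians of cholesterol genes were 0.22 in the inhibitor control and -1.74 in the mimic control. Those of hypoxia-inducible genes were 0.55 and -0.26, and those of myoblast markers -0.97 and -4.60. Myh3 was at 0.192 CPM in the mimic control and 11.1 in the inhibitor control, and H19 at 30.05 and 616. Proteasome subunits were lower in the inhibitor control in 27 of 30 cases, ribosomal proteins in 40 of 45, respiratory subunits in 31 of 34 and nucleolar genes in 21 of 25. Nop56 was at 248 CPM in the inhibitor control and 1018 in the mimic control. Several genes called against high glucose did not pass the test between the controls: Txnip (0.30), Ccl2 (0.15), Dyrk4 (0.07), Ostn (-0.10) and Hspb1 (-0.09), on the log2 scale. A p that misses the threshold does not show that these levels were equal.

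**Figure D5:**
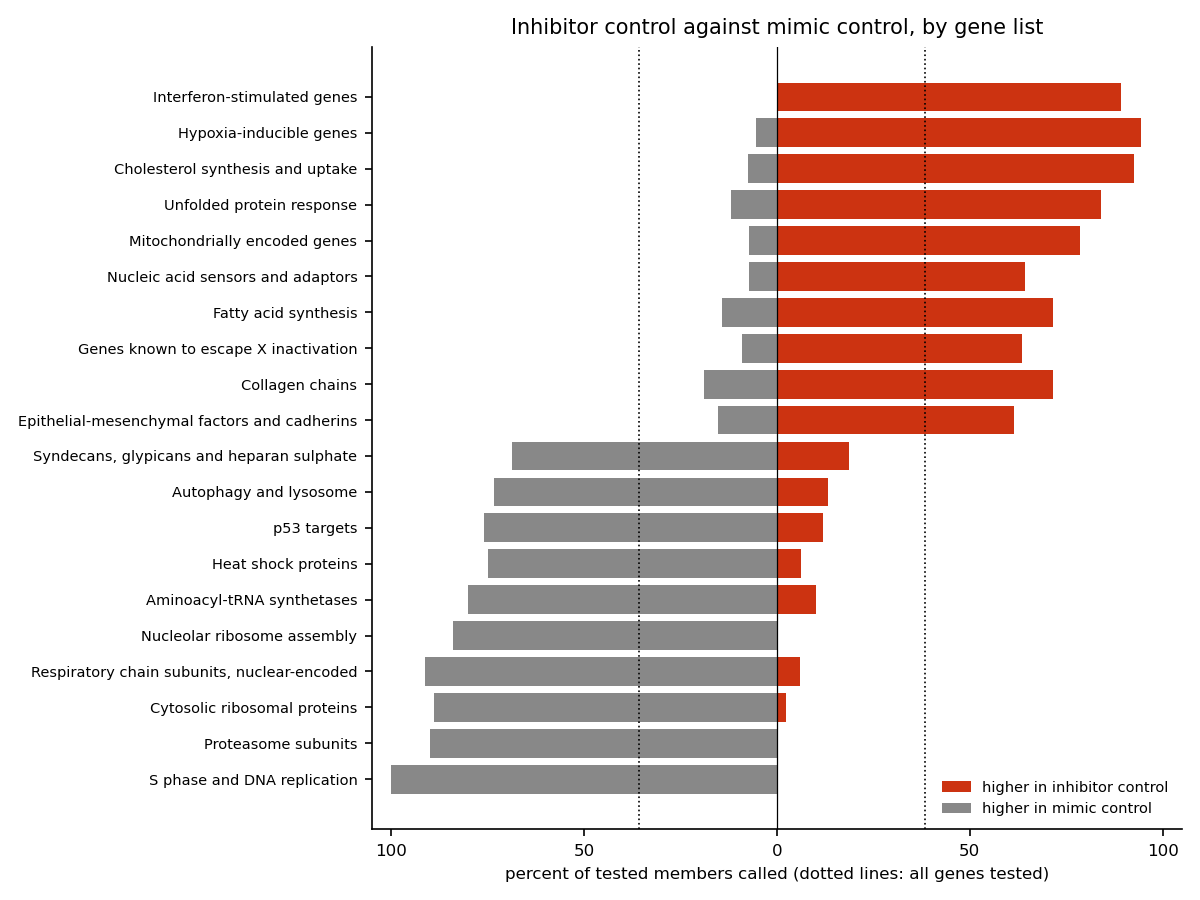
Percent of tested members of each gene list called higher in the inhibitor control (red, to the right) or higher in the mimic control (grey, to the left), for the 10 lists at either end and at least 10 genes tested, with dotted lines at 38.5% and 35.7%, the shares over all genes. Interferon and cholesterol genes lie to the right, and replication and proteasome genes to the left.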

How the data were processed

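The authors deposited raw read counts per gene and FPKM values, which divide fragments by gene length and mapped total, for 18 libraries. Per the labels' protocols, stranded messenger RNA libraries were read as paired 150 nt ends, reads with more than 2 N bases were dropped, FASTX-Toolkit 0.0.13 trimmed the rest, reads under 16 nt were dropped, and HISAT2 aligned to GRCm39 with 4 mismatches allowed and kept unique reads. The submitters' processing notes name DESeq2 without a role. No source used here names the counting program, its strand setting or the annotation, so overlapping antisense genes may share reads, and genes with near-identical copies (H2 genes, Try5, ribosomal proteins, histones, Rn18s) are uncertain.

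Counts of all 18 libraries were fitted with 1 term per group (12 residual degrees of freedom) in edgeR 4.0.16 under R 4.3.3, after filterByExpr (minimum count 10, minimum total 15) and TMM scaling. Adjusted p-values are Benjamini-Hochberg values of edgeR's quasi-likelihood test over 15074 genes, called under 0.05. CPM are counts scaled to the library total and by TMM. A count of 0 allows up to 3 reads, 0.0845 to 0.0891 CPM in the 6 libraries, which covers counting error only. Between replicates, chi-square over genes was 4.37 to 18.1 per degree of freedom. Gene types are those of the deposited table, and coordinates, GC content, length and introns come from GENCODE M39 (GRCm39). Promoters and the microRNA come from RefSeq (GRCm38.p6).

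The comparison, the gene lists and the genes named were chosen with earlier results of these data known. The text names the 15 genes each way with the largest change among called genes of at least 5 CPM in the higher group with no overlap between libraries, leaving out predicted gene models (218 of 4022 higher and 152 of 4628 lower genes by that filter), the 8 each way with the largest difference in CPM, up to 5 called members of each list by size of change, up to 5 genes each way with at most 3 reads in a group, and Xist, Rn18s, Zeb1, Zeb2, Txnip, Keap1, Ctnnb1, Nppa, Nppb, Myh6 and Myh7. Other list members are named for their role and were chosen after their values were seen. Some genes that these rules select are not reported here. Of 1242 listed genes, 1234 matched the count table.

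Same-numbered libraries of the compared groups had deviations that correlated at 0.19, 0.02 and 0.12, and the labels give no pairing, so the numbers were not taken as pairs. Alternatives were DESeq2 1.42.0, its size factors, upper quartile scaling, no filter, the 6 compared libraries alone, a replicate block, correction for GC content and length, limma 3.58.1 on the authors' FPKM as log2(FPKM + 1) or log2(FPKM + 0.1), and each library left out.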

Additional observations from a re-analysis of the deposited data

Results flagged for a closer look

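Of 276 tested genes named above, 26 moved in opposite directions from high glucose in the 2 negative controls, each past the threshold against high glucose and between the controls by edgeR. The share over all genes tested is not given here, and some genes were named after their values were seen. The count is therefore not read as many or few. The 17 that follow first were higher than high glucose in the inhibitor control and lower in the mimic control, and values are log2 differences, inhibitor control minus mimic control. Among nuclear RNAs, Neat1 differed by 5.65 and Malat1 by 3.34. Among interferon genes and RNA sensors, Oas2 differed by 7.34, Mx2 by 3.53, Ifih1 by 2.77, Rigi by 1.69 and Eif2ak2 by 1.46. The mimic control held almost no reads of Oas2, and high glucose was near the floor of 3 reads. The size of the Oas2 difference is therefore uncertain. Among lipid genes, Idi1 differed by 3.51, Elovl6 by 2.04 and Fasn by 1.20. Col12a1 and Cdh11 differed by 3.93 and 3.93, Mmp10 by 3.74, Spry1 by 3.52, Myf5 by 2.40, Tnnt2 by 2.03 and Zeb2 by 0.68.

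The other 9 were lower than high glucose in the inhibitor control and higher in the mimic control. The clock repressor Nr1d1 differed by -3.19, the stress genes Gdf15 and Nupr1 by -1.53 and -1.03, and Uqcrc1 by -1.21. Mdm2 differed by -1.08, B2m by -1.07, Psmd2 by -1.07, Pfkfb3 by -0.99 and Myh9 by -0.91. For Zeb2 and Myh9 the value against high glucose turned sign with correction for GC content and length.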

How the results depend on the processing

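The counts of higher and lower genes ran from 5719 to 6569 and from 5525 to 6248 over 16 alternatives, and the calls between the controls from 10800 to 11678. At least 2-fold changes fell to 974 higher and 1319 lower in limma on log2(FPKM + 1), whose pseudocount shrinks changes of low genes. That setting moved the medians of NF-kB genes from -2.78 to -1.30 and of Notch genes from -2.21 to -0.83. It moved those of interferon-stimulated genes from 1.50 to 0.45 and of clock genes from -1.45 to -0.52. These are examples, and medians of other lists moved too. Leaving out 1 library of the compared groups at a time gave 5852 to 5954 higher and 5779 to 5872 lower. Without replicate 2 of the mimic group the counts were 6248 and 6084. The replicate block gave 6031 higher and 5919 lower. Upper quartile scaling moved the median of all genes to 0.11, with 6489 higher and 5525 lower. Of 421 genes computed under each alternative, 394 kept direction and side of the threshold throughout. Correction for GC content and length reversed Myh9 (0.20), mt-Atp8 (-0.62), Srebf1 (0.52), Zeb2 (-0.18), Keap1 (0.15), Gata4 (0.57), Pdgfrb (0.21), Cebpb (0.21) and Jag2 (0.65), and the median of mitochondrially encoded genes (-0.51); the cause was not tested. The median of histone genes ran from -0.24 to 0.0505 with libraries left out, with 0.0505 without high glucose replicate 2, and that of skeletal myoblast markers went from -0.97 to -1.46 without inhibitor control replicate 3. Levels of a few reads, as for Nppb or Myh7, are limited by depth.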
